A study of Mus musculus with 22 samples.

Results

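Transcripts of 7 genes were followed: 4 chemokines that draw monocytes into tissue (Ccl2, Ccl7, Ccl8 and Ccl12) and 3 receptors that monocytes carry (Ccr1, Ccr2 and Cx3cr1). They were chosen by name, with earlier results of these data known, out of 55439 genes counted in at least one cell type. All 7 were counted and tested in both cell types. RNA sequencing had been done on 22 samples sorted from mouse lung, 12 of Ly6Chi monocytes (4 control, 4 at 3 d and 4 at 14 d) and 10 of alveolar macrophages sorted as SigF+CD11b- (4 control, 3 at 3 d and 3 at 14 d). All groups, controls included, came from adult C57BL/6 mice with the SP-CI73T mutant genotype, a threonine for isoleucine exchange in surfactant protein C. The 3 d and 14 d groups were taken that long after tamoxifen, given by mouth. The drug activates a Flp-O recombinase expressed from Rosa26 and raises mutant surfactant protein C in alveolar type 2 cells. Controls are labelled untreated, whereas the study's methods describe controls as tamoxifen-treated mice without Flp-O or oil-treated mice with it, and its account of the monocyte sequencing names oil-treated mutant mice alone. The labels do not say whether samples of a group came from separate mice, so that p-values measure only the spread between samples.

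Chemokines are small secreted proteins that bind G protein-coupled receptors and guide leukocytes along a gradient. Ccl2, Ccl7 and Ccl12 are ligands of Ccr2, the receptor by which Ly6Chi monocytes leave the bone marrow and enter inflamed tissue; Ccl7 also binds Ccr1, and mouse Ccl8 has been described as a ligand of Ccr8 as well. Ccr1 binds several inflammatory CC chemokines, whereas Cx3cr1, the receptor of the membrane-bound chemokine Cx3cl1, is typically low on Ly6Chi monocytes, high on patrolling monocytes and high on many tissue macrophages. The question addressed here was which of the sorted cell types held transcripts of the ligands, which held those of the receptors, and how both moved with time.

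The ligand genes lie in 1 cluster on chromosome 11 of the GRCm38 build, all on the forward strand, with Ccl11 between Ccl7 and Ccl12. Ccl2 spans chr11:82035571-82037453, Ccl7 spans chr11:82045712-82047525, Ccl12 spans chr11:82101845-82103400 and Ccl8 spans chr11:82115185-82116799. The receptor genes lie on chromosome 9, with Cx3cr1 at chr9:119901616-120069879 and Ccr1 at chr9:123962124-123968692 on the reverse strand, and Ccr2 at chr9:124101950-124113557 on the forward strand. Exons of Cx3cr1 share 78 bases with Gm33858 on the other strand, and those of the other 6 genes share none with another gene. Because the ligands arose from one another by duplication, the coding stretch around their paired cysteines is shown from the GENCODE transcripts, with the 2 adjacent cysteine codons that define CC chemokines in capitals and 45 bases on each side.
Ccl2: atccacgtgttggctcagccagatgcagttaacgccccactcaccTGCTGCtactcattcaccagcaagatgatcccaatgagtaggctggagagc
Ccl7: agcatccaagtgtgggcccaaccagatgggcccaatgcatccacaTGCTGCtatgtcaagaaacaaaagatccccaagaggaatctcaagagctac
Ccl8: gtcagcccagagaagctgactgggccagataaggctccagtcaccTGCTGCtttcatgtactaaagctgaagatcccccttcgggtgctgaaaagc
Ccl12: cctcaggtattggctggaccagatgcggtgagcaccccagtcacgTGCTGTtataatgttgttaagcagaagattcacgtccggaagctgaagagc
Coding sequences of ligand pairs were identical at 69.1 to 72.4% of aligned bases and those of receptor pairs at 63.2 to 67.7%. The longest run of bases shared by the transcripts of any ligand pair was 23 bases, between Ccl2 and Ccl7, and that of any receptor pair was 16 bases, both far shorter than the reads of 150 bases.

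Totals were 15451460 to 28789639 counts in monocyte samples and 4610720 to 17074863 in macrophage samples, the 3 lowest being the 14 d macrophages. Values are given as counts per 1000000 counts of the sample (CPM), scaled with TMM factors within a cell type unless stated otherwise, and 3 counts, taken as the floor of detection, were worth 0.104 to 0.194 CPM in monocyte samples and 0.176 to 0.651 CPM in macrophage samples. Depth intervals of this kind cover counting error only. Monocyte samples at 3 d stood apart in the number of genes with a count, 40119 to 41134 against 24775 to 32492 in the other monocyte samples. Y-linked genes had 433 to 3033 counts in every 14 d sample and at most 3 in every control and 3 d sample, so that sex and the 14 d time point cannot be told apart. Ly6c2, which encodes the Ly6C antigen, lay between 1314 and 3459 CPM in monocytes, whereas macrophages held 1.18 to 6.19 CPM. Siglecf, which encodes the SigF antigen, lay between 90.1 and 348 CPM in macrophages and between 0.80 and 29.2 CPM in monocytes. Itgam, which encodes CD11b, rose in the CD11b- macrophages from 0.730 to 2.66 CPM in control to 54.9 to 102 CPM at 14 d.

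In monocytes all 4 ligands rose against control at both times, and Ccl2, Ccl8 and Ccl12 rose further from 3 d to 14 d. At 3 d against control, 6 of the 7 genes were called (5 higher and 1 lower), where a call is an adjusted p under 0.05 in edgeR's quasi-likelihood test with a fold change above 1.5; of all 22353 genes tested, 51.2% were called. At 14 d against control 6 of the 7 were again called (5 higher and 1 lower) against 8.56% of all genes. Between 3 d and 14 d, 5 of the 7 were called, all higher, against 46.5% of all genes. These contrasts share samples, the first and second their controls. Samples of the 2 groups did not overlap for 1 of the 7 genes at 3 d, against 51.2% of all genes. They did not overlap for 6 at 14 d, against 13.7%, and for 4 between 3 d and 14 d, against 51.4%. In RNA from sorted samples, fewer cells of a type and less RNA per cell cannot be told apart.

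Ccl2, the main attractant of Ccr2-bearing monocytes, was at 48.6, 33.5, 30.3 and 28.2 CPM in the 4 control monocyte samples. It was at 109.8, 25.4, 217 and 118 CPM at 3 d, so that 3 samples stood above every control and 1 below all of them. At 14 d it was at 193, 357, 565 and 322 CPM, above every control. The log2 fold change was 1.74 (SE 0.51, edgeR adjusted p = 0.0128) at 3 d and 3.35 (SE 0.54, edgeR adjusted p = 0.00183) at 14 d, the latter a 10.2-fold rise. From 3 d to 14 d it was 1.61 (SE 0.50, edgeR adjusted p = 0.0202), with groups that overlapped. That last call was lost without the 14 d sample 3 (log2 fold change 1.30, edgeR adjusted p = 0.0540), and with both other scalings and the stricter filter (1.13 to 1.27, edgeR adjusted p from 0.0580 to 0.0877); that at 3 d was lost with no filter on low counts (1.46, edgeR adjusted p = 0.0629).

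Ccl7, also known as monocyte chemoattractant protein-3, was at 3.52, 15.7, 1.17 and 3.99 CPM in control monocytes. It was at 52.7, 6.56, 216 and 124 CPM at 3 d and at 163, 284, 437 and 319 CPM at 14 d. Sample 2 at 3 d thus lay inside the control range while the other 3 lay above it, and all 14 d samples lay above all controls. The log2 fold change was 4.05 (SE 1.02, edgeR adjusted p = 0.00738) at 3 d and 5.64 (SE 1.09, edgeR adjusted p = 0.00815) at 14 d. Without control sample 2, the highest control, these were 5.06 and 6.70, and without 3 d sample 3 the first was 3.41. The further change from 3 d to 14 d, 1.59 (SE 0.91, edgeR adjusted p = 0.159), did not pass.

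Ccl8, also known as monocyte chemoattractant protein-2, was close to the floor in control monocytes, at 0.124, 0.807, 0.402 and 0.122 CPM, 31 counts in all. It was at 0.325, 0.808, 5.37 and 1.41 CPM at 3 d, overlapping the controls, and at 51.2, 78.6, 43.8 and 49.3 CPM at 14 d, far above both earlier groups. The log2 fold change was 2.46 (SE 0.81, edgeR adjusted p = 0.0216) at 3 d, 7.30 (SE 0.86, edgeR adjusted p = 0.000225) at 14 d and 4.84 (SE 0.74, edgeR adjusted p = 0.00107) from 3 d to 14 d. The call at 3 d was lost without control sample 1 (2.13, edgeR adjusted p = 0.0627), control sample 4 (2.17, edgeR adjusted p = 0.0643) or 3 d sample 3 (1.34, edgeR adjusted p = 0.0778), and with no filter on low counts (2.19, edgeR adjusted p = 0.0772). Without control sample 2 it was 3.08 at 3 d and 7.97 at 14 d, and without 3 d sample 3 the later step was 5.95.

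Ccl12, a rodent chemokine close to Ccl2 in its receptor use, was at 0.414, 0.968, 1.25 and 0.692 CPM in control monocytes. It was at 3.33, 0.494, 17.7 and 7.76 CPM at 3 d and at 28.2, 42.8, 73.4 and 40.4 CPM at 14 d, the last group above every other monocyte sample. The log2 fold change was 3.13 (SE 0.82, edgeR adjusted p = 0.00778) at 3 d, 5.79 (SE 0.88, edgeR adjusted p = 0.00145) at 14 d and 2.66 (SE 0.74, edgeR adjusted p = 0.0128) between the 2 times. Without 3 d sample 3 the first was 2.29 and the last 3.49.

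The spread among 3 d monocyte samples had one order for 3 of the ligands: Ccl2, Ccl7 and Ccl12 were each lowest in sample 2, followed by sample 1, sample 4 and, highest, sample 3. Sample 3 was also highest in Ccl8. Sample 3 had the highest summed level of 8 markers of interstitial and monocyte-derived macrophages (C1q chains, Folr2 and others). That sum was 291 CPM against 83.2 to 170 CPM in the other 3 d samples. The sum of 12 resident alveolar macrophage markers was highest in sample 3 too, at 967 CPM against 282 to 761 CPM. Both sums followed the sample order of Ccl2, Ccl7 and Ccl12. Sample 2 had the highest summed level of 6 T and NK cell markers, 119 CPM against 8.04 to 20.8 CPM in the others, and Ccr1 was lowest in sample 2 as well. The part of these other cells in the ligand values was not tested.

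**Figure D1:**
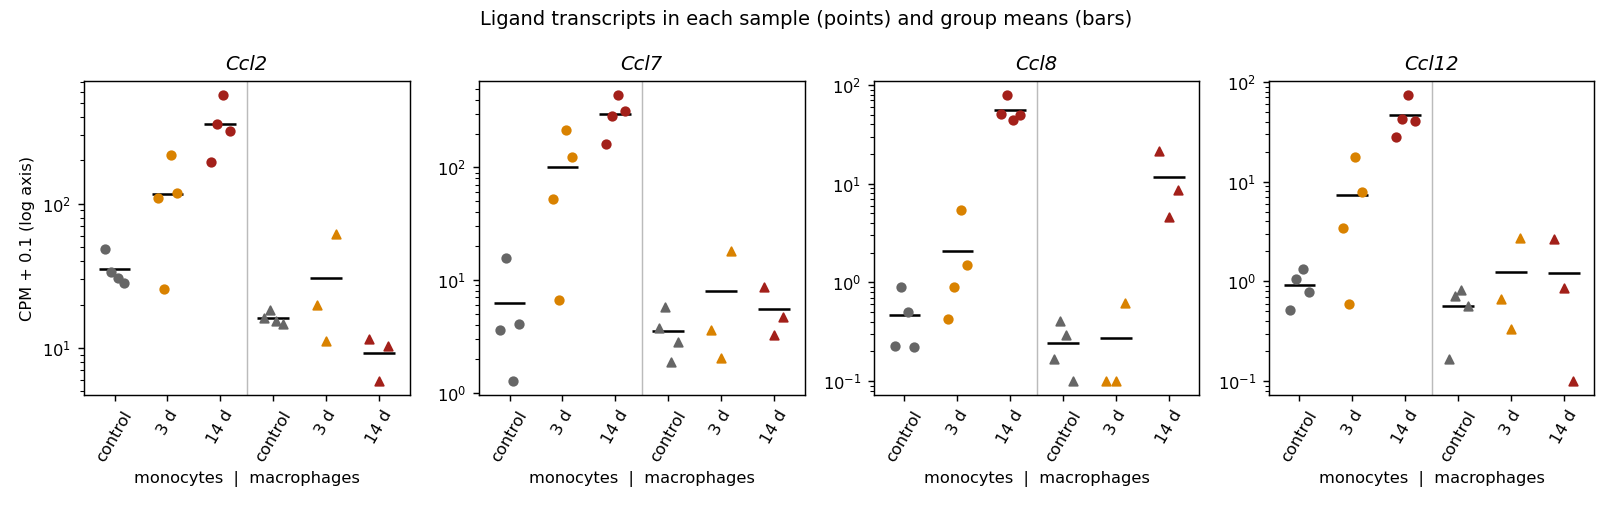
CPM plus 0.1 on a log axis for Ccl2, Ccl7, Ccl8 and Ccl12 in each sample of control, 3 d and 14 d monocytes (circles) and macrophages (triangles), with horizontal bars at the group mean. All 4 ligands are highest in the 14 d monocytes, where for Ccl8 the 4 samples sit between 43.8 and 78.6 CPM; in macrophages only the Ccl8 samples at 14 d, 4.54 to 21.6 CPM, sit above every control.

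The promoters of Ccl8 and Ccl12, the only ligands with an entry in the RefSeq promoter set used, are shown on GRCm38.p6. They are the 250 bases before the start on the forward strand, Ccl8 at chr11:82114935-82115184 and Ccl12 at chr11:82101595-82101844.
Ccl8: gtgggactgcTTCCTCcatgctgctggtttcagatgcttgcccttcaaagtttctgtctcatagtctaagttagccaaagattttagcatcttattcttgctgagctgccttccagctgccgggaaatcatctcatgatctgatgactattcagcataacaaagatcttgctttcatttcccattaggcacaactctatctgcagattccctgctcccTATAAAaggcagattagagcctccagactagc
Ccl12: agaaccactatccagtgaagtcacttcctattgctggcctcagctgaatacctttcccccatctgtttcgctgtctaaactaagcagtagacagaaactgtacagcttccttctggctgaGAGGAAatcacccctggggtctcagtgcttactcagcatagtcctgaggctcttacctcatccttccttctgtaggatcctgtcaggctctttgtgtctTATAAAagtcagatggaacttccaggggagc
Capitals mark matches, on either strand, to the letters GAGGAA, a core bound by the myeloid factor PU.1, and TATAAA, the TATA box. Both promoters held both motifs, the TATA box beginning at position -32 of Ccl8 and -31 of Ccl12, whereas among all 32851 RefSeq promoters 23.25% held the first and 12.37% the second. Letters of an interferon regulatory factor motif (GAAANNGAAA, in 2.98% of promoters), of NF-kB (GGGNNNNNCC, in 45.8%), of AP-1 (TGANTCA, in 6.75%) and of C/EBP (TTGCNNAA, in 9.56%) were searched too and were not in these windows. No match in these windows overlapped another, and a match of letters is a description of the sequence, not of binding. Searched in the same way, the promoter of Ccr1 held the PU.1 and NF-kB letters, that of Cx3cr1 those of NF-kB, and that of Ccr2 none of the 6 motifs. A shorter interferon regulatory factor form (GAAANNGAA, in 7.13% of promoters), added after these matches were seen, was in the promoter of Ccr2 and in none of the other 4 searched. The promoters of Ccl2 and Ccl7 were not analysed here.

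In macrophages at 3 d none of the 7 genes was called by edgeR, against 1.27% of all 20944 genes tested; at an unadjusted p under 0.05 0 of the 7 passed, and DESeq2 called 0. At 14 d against control 3 of the 7 were called, all higher (Ccl8, Ccr2 and Cx3cr1), against 62.3% of all genes, a share that the members did not exceed. From 3 d to 14 d 4 of the 7 were called (3 higher and 1 lower) against 56.4%. Samples of the 2 groups did not overlap for 0 of the 7 at 3 d, against 14% of all genes. They did not overlap for 4 at 14 d, against 70.8%, and for 3 between 3 d and 14 d, against 65.5%.

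Ccl8 had 1, 4, 3 and 0 counts in the 4 control macrophage samples, 0, 0 and 5 counts at 3 d, and 150, 36 and 50 counts at 14 d. In CPM the 14 d samples were at 21.6, 4.54 and 8.45, above every earlier sample, which reached at most 0.521 CPM. The log2 fold change at 14 d was 6.27 (SE 0.84, edgeR adjusted p = 4.44e-05) against control and 6.23 (SE 0.98, edgeR adjusted p = 0.000270) against 3 d. It rested on 8 counts in all controls and 5 in all 3 d samples. Leaving out a library moved the first value to between 5.39, without 14 d sample 1, and 6.86, without control sample 2. The second moved to 5.42, 5.41 and 9.96 without 3 d samples 1, 2 and 3, and to 5.32 without 14 d sample 1.

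Ccl2 was at 16.2, 18.2, 15.3 and 14.6 CPM in control macrophages, a narrow range. It was at 19.7, 11.02 and 61.3 CPM at 3 d and at 11.5, 5.80 and 10.3 CPM at 14 d, where all 3 samples lay below every control. Against control the log2 fold change at 14 d was -0.81 (SE 0.52, edgeR adjusted p = 0.192), not a call, although without 3 d sample 2 or sample 3, which enter the shared estimate of spread, it was called (-0.997, edgeR adjusted p = 0.0307, and -0.96, edgeR adjusted p = 0.00306), as it was with only the 2 groups fitted (-0.75, edgeR adjusted p = 0.0171). From 3 d to 14 d it fell by 1.73 on the log2 scale (SE 0.55, edgeR adjusted p = 0.0205), a call lost without 14 d sample 2 (edgeR adjusted p = 0.0892) or 14 d sample 3 (edgeR adjusted p = 0.0726) and with both other scalings (-1.28 and -1.23, edgeR adjusted p = 0.0656 and 0.0883). Without 3 d sample 2 the change was -2.35 and without 3 d sample 3, the highest, it was -0.92.

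Ccl7 was between 1.77 and 5.70 CPM in control macrophages, at 3.51, 1.94 and 18.04 CPM at 3 d and at 8.64, 3.15 and 4.57 CPM at 14 d, with groups that overlapped. Ccl12 was at most 0.721 CPM in control macrophages, at 0.573, 0.233 and 2.61 CPM at 3 d and at 2.59, 0.756 and 0 CPM at 14 d. No contrast of either passed in macrophages. Macrophage sample 3 at 3 d was the highest of its group for each of the 4 ligands, and its summed markers of interstitial and monocyte-derived macrophages were 48.2 CPM against 23.7 and 42.8 CPM in the other 3 d samples. It stood further apart in B cell markers, 529 CPM in sum against 297 and 166 CPM, and in markers of CD11b+Ly6Chi monocytes, 65515 CPM against 39414 and 37425 CPM, most of it Chil3 and Lyz2, which alveolar macrophages express too. Without that sample the 3 d values of Ccl2, Ccl7, Ccl8 and Ccl12, at 0.92, 1.16, 0.043 and 1.22 on the log2 scale with all samples, were -0.036, -0.30, -3.83 and -0.17, none of them called. The part of other cells in these values was not tested.

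Within each sample, the make-up of the ligand pool was compared as reads per 1000 bases of exon per 1000000 counts (RPKM), a scale on which genes of unlike length can be set beside each other. Summed over the 4 ligands, control monocytes held 40.8 ± 11.1 RPKM (SD, n = 4), 3 d monocytes 245 ± 199 RPKM (SD, n = 4) and 14 d monocytes 886 ± 302 RPKM (SD, n = 4). Macrophages held 19.6 ± 3.63 RPKM in control (SD, n = 4), 39.2 ± 37.7 RPKM at 3 d (SD, n = 3) and 39.5 ± 25.4 RPKM at 14 d (SD, n = 3). Ccl2 was the leading ligand in the control samples of both cell types, 56.2 to 88.8% of the sum in control monocytes and 64.4 to 77.3% in control macrophages. In 14 d monocytes Ccl7 took 38.7 to 46.7%, Ccl2 32.3 to 39.3%, Ccl8 6.78 to 19.1% and Ccl12 8.81 to 10.8%. In 14 d macrophages Ccl8 led with 46.0 to 62.2%, and Ccl2 was down to 14.9 to 28.9%. The order of Ccl2 and Ccl7 in 14 d monocytes depended on the length used for Ccl2: mean levels were 316 RPKM for Ccl2 and 376 RPKM for Ccl7 with all annotated exons, but 442 RPKM for Ccl2 with its shortest coding transcript, an alternative added after the lengths were seen.

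**Figure D2:**
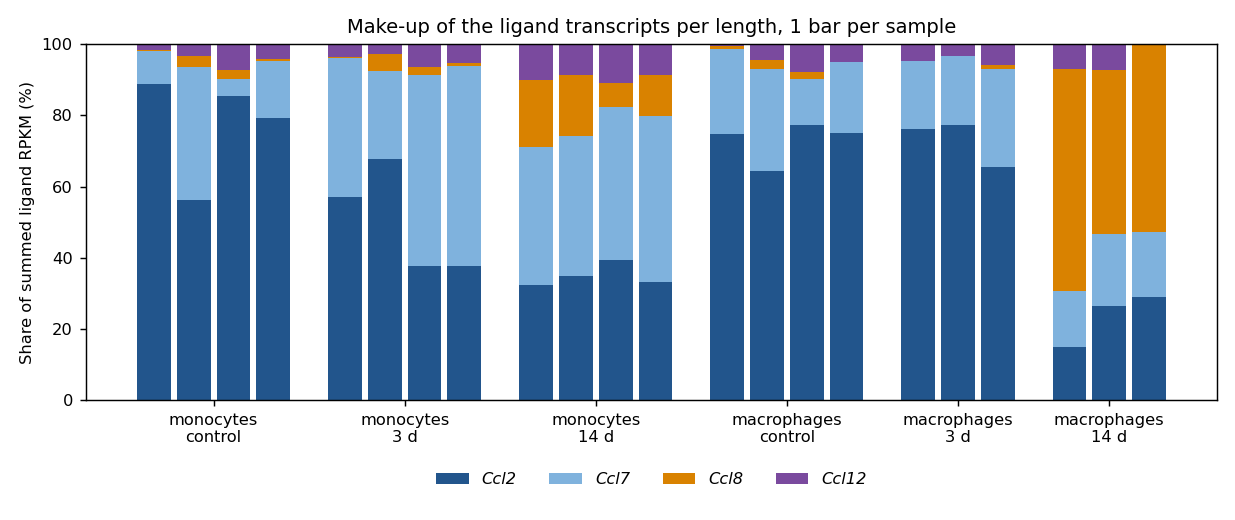
Share of the summed ligand RPKM, in percent, taken by Ccl2, Ccl7, Ccl8 and Ccl12 in each of the 22 samples, 1 stacked bar per sample. Ccl2 takes the most in every control sample, Ccl7 leads in the 14 d monocytes, and Ccl8 takes 46.0 to 62.2% in the 14 d macrophages.

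Among the receptors, Ccr1 rose in monocytes, Cx3cr1 fell, and Ccr2 stayed high with a wide spread. Ccr1 was at 122, 149, 175 and 87.6 CPM in control monocytes, at 287, 130.1, 253 and 358 CPM at 3 d and at 688, 536, 669 and 577 CPM at 14 d. Only sample 2 at 3 d fell inside the control range, and all 14 d samples lay above all others. The log2 fold change was 0.95 (SE 0.26, edgeR adjusted p = 0.00863) at 3 d, 2.21 (SE 0.27, edgeR adjusted p = 0.000150) at 14 d, a 4.64-fold rise, and 1.26 (SE 0.27, edgeR adjusted p = 0.00283) from 3 d to 14 d.

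Cx3cr1 was at 1206, 743, 563 and 594 CPM in control monocytes. It was at 165, 172, 133 and 298 CPM at 3 d and at 209.9, 207, 199 and 273 CPM at 14 d, so that both later groups lay below every control and overlapped each other. It was the only 1 of the 7 genes whose control and 3 d samples did not overlap, against 51.2% of all genes. It fell by 2.01 on the log2 scale at 3 d (SE 0.27, edgeR adjusted p = 0.000354) and by 1.80 at 14 d (SE 0.27, edgeR adjusted p = 0.000676), while the step between the times, 0.21 (SE 0.26, edgeR adjusted p = 0.513), did not pass. All 6 markers of patrolling monocytes fixed for comparison (Nr4a1, Treml4, Ace, Spn, Cd300e and Eno3) fell with it at both times. For scale, 14.4% of all genes were called lower at 3 d and 5.34% at 14 d. The summed level of these 6 markers was 2184 to 2739 CPM in control, 385 to 683 CPM at 3 d and 307 to 588 CPM at 14 d. Of 6 markers of T and NK cells, some of which carry Cx3cr1 as well, 5 fell at 3 d (3 with either other scaling) and 3 at 14 d, with summed levels of 163 to 698 CPM in control, 8.04 to 119 CPM at 3 d and 11.9 to 18.9 CPM at 14 d. Every marker of both lists had counts in every control monocyte sample, the lowest being Cd3e at 0.994 CPM. Other marker sums moved in 3 d monocytes too. Without overlap with control, CD11b+Ly6Chi monocyte markers fell from 76768 to 116259 CPM to 52009 to 63212 CPM. Dendritic cell markers fell from 236 to 378 CPM to 26.0 to 187 CPM, and B cell markers from 73.6 to 106 CPM to 27.9 to 44.7 CPM. Eosinophil and fibroblast sums were higher at 3 d (1.46 to 2.29 and 13.2 to 15.4 CPM), and the remaining lists overlapped control. At 14 d dendritic cell (115 to 194 CPM) and B cell sums (23.4 to 48.1 CPM) again lay below every control. The sum of interstitial and monocyte-derived macrophage markers lay above every control then, and the lists not yet given for 14 d overlapped control. The part of any of these cells in the fall of Cx3cr1 was not tested.

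Ccr2 was at 2843, 2159, 993 and 875 CPM in control monocytes, the highest over 3 times the lowest. It was at 1165, 1207, 688 and 1315 CPM at 3 d and at 2823, 2044, 1629 and 1695 CPM at 14 d. The change against control was -0.65 (SE 0.35, edgeR adjusted p = 0.124) at 3 d, called only without control sample 3 (-0.88, edgeR adjusted p = 0.0464), and 0.25 (SE 0.35, edgeR adjusted p = 0.721) at 14 d. From 3 d to 14 d it rose by 0.90 on the log2 scale (SE 0.35, edgeR adjusted p = 0.0440) and the groups did not overlap. That call held in only 5 of the 12 fits that left out a library (edgeR adjusted p from 0.0166 to 0.167) and in 3 of 8 other settings: it was lost without any 14 d sample or without 3 d sample 1, 2 or 3, where the log2 fold change was 0.65 to 0.97.

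In macrophages Ccr1 was at 156, 243, 187 and 179 CPM in control, at 216, 209 and 333 CPM at 3 d and at 244, 263 and 123 CPM at 14 d, and no contrast passed, except at 14 d against control with TMM factors of well-expressed genes only (0.67, edgeR adjusted p = 0.0185). Ccr2 was at 20.3, 13.2, 25.1 and 13.7 CPM in control macrophages, at 12.5, 32.4 and 19.3 CPM at 3 d and at 88.0, 37.7 and 35.8 CPM at 14 d, all of the last above every earlier sample. Its log2 fold change at 14 d was 1.57 (SE 0.40, edgeR adjusted p = 0.00561) against control and 1.33 (SE 0.44, edgeR adjusted p = 0.0229) against 3 d. Without 14 d sample 1 these were 0.98 (edgeR adjusted p = 0.0211) and 0.74 (edgeR adjusted p = 0.0914), and the second was also lost without 3 d sample 1 (0.91, edgeR adjusted p = 0.110) or 3 d sample 3 (1.10, edgeR adjusted p = 0.132), or with no filter on low counts (1.12, edgeR adjusted p = 0.0887). Cx3cr1 was at 1.58, 1.06, 2.10 and 0.730 CPM in control macrophages, at 1.36, 2.25 and 1.46 CPM at 3 d and at 10.8, 5.04 and 5.24 CPM at 14 d, again without overlap. Its log2 fold change was 2.35 (SE 0.41, edgeR adjusted p = 0.000187) against control and 2.05 (SE 0.45, edgeR adjusted p = 0.00153) against 3 d.

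Markers of other cells moved in the same 14 d macrophage samples as Ccl8, Ccr2 and Cx3cr1. Against control, 39.4% of all genes were called higher and 22.9% lower in these samples. Of 8 markers of interstitial and monocyte-derived macrophages 6 rose, and their summed level was 7.60 to 43.3 CPM in control, 23.7 to 48.2 CPM at 3 d and 291 to 577 CPM at 14 d. All 5 fibroblast markers rose, with summed levels of 16.2 to 22.1 CPM in control and 151 to 331 CPM at 14 d, and all 4 eosinophil markers rose, with 0.664 to 1.90 CPM in control and 28.4 to 107 CPM at 14 d. Of 12 markers of resident alveolar macrophages 10 fell, with summed levels of 8872 to 10028 CPM in control and 3016 to 4218 CPM at 14 d. Endothelial markers rose in sum from 7.75 to 16.6 CPM to 31.6 to 42.2 CPM, and those of patrolling monocytes fell from 356 to 422 CPM to 218 to 307 CPM. Sums of neutrophil, dendritic, T and NK, B and epithelial cell markers overlapped control. Of 7 tested markers of CD11b+Ly6Chi monocytes 2 rose, Itgam by 5.45 on the log2 scale and Vcan by 2.28, and Lyz2 fell by 1.10. The other 4 were not called, among them Ly6c2, at 1.51 to 3.34 CPM in control and 1.18 to 6.19 CPM at 14 d. In monocytes the interstitial list moved with the ligands at 14 d too, 6 of its 8 genes rising, with summed levels of 65.5 to 184 CPM in control and 771 to 2048 CPM at 14 d. The part of other cells in these results was not tested.

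**Figure D3:**
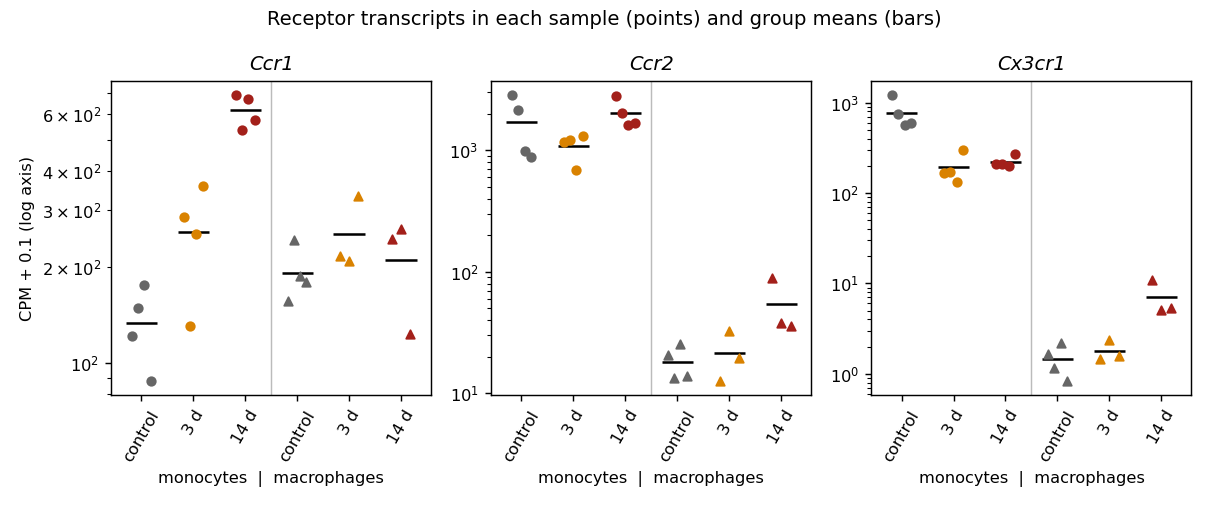
CPM plus 0.1 on a log axis for Ccr1, Ccr2 and Cx3cr1 in each sample of control, 3 d and 14 d monocytes (circles) and macrophages (triangles), with horizontal bars at the group mean. Monocyte Ccr1 reaches 536 to 688 CPM at 14 d, monocyte Cx3cr1 drops below every control by 3 d, and the Ccr2 and Cx3cr1 of 14 d macrophages sit above their controls.

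The balance of receptors within a sample was compared per length. In monocytes the Ccr2 to Cx3cr1 ratio was 0.983 to 1.94 in control, 2.94 to 4.70 at 3 d and 4.14 to 8.96 at 14 d, with no overlap between control and either later group. The Ccr2 to Ccr1 ratio moved the other way, from 2.38 to 9.80 in control to 1.02 to 1.72 at 14 d. At 3 d this ratio was 1.14 to 3.89, overlapping both. In macrophages Ccr1 was by far the leading receptor, the Ccr2 to Ccr1 ratio being 0.0227 to 0.0563 in control, 0.0242 to 0.0651 at 3 d and 0.0600 to 0.151 at 14 d. These ratios use all annotated exons; with the shortest coding transcripts the mean level of Ccr2 in control monocytes was 758 RPKM in place of 254, and that of Cx3cr1 246 RPKM in place of 172, so that the height of a ratio depends on the length chosen and its change between groups does not.

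**Figure D4:**
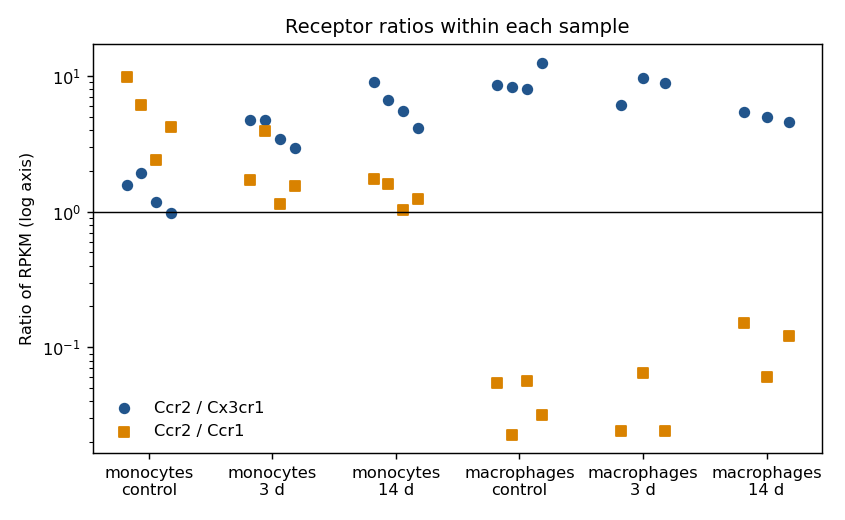
Ratio of RPKM, on a log axis, of Ccr2 to Cx3cr1 (circles) and of Ccr2 to Ccr1 (squares) within each sample, by group, with a line at 1. Both ratios lie at or above about 1 in every monocyte sample, the lowest being 0.983, whereas Ccr2 to Ccr1 is at most 0.151 in macrophages.

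Set side by side in 1 fit over both cell types, with 26692 genes tested, each member that was called was higher in monocytes. In control samples 3 of the 7 were higher in monocytes and none lower. Of all genes 44.2% were called there, a share that the members did not exceed, and 19.7% were called higher. At 3 d 6 of the 7 were higher, all but Ccr1, against 63.1% of all genes called in either direction and 42.7% called higher. At 14 d all 7 were higher, against 63.7% of all genes called in either direction and 23.3% called higher. The 2 cell types were deposited as separate tables, so that cell type and any difference in how they were made cannot be told apart.

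In control samples Ccr2 and Cx3cr1 had the largest differences of the 7 genes between the cell types. In control samples Ccr2 was higher in monocytes by 6.92 on the log2 scale (SE 0.51, edgeR adjusted p = 1.47e-09) and Cx3cr1 by 9.495 (SE 0.42, edgeR adjusted p = 3.00e-14). At 14 d the differences were 5.96 for Ccr2 (SE 0.56, edgeR adjusted p = 3.60e-08) and 5.69 for Cx3cr1 (SE 0.41, edgeR adjusted p = 9.16e-11). Ccr1 did not pass in control samples (-0.15, SE 0.26, edgeR adjusted p = 0.669) or at 3 d (0.57, SE 0.29, edgeR adjusted p = 0.0842), a value called without monocyte 3 d sample 2 (0.79, edgeR adjusted p = 0.0105) or with 2 other settings (0.68 and 0.71), and was higher in monocytes at 14 d (2.28, SE 0.31, edgeR adjusted p = 1.09e-06). Across the 6 groups on the common scale the mean of Ccr1 ran from 720 ± 89.8 CPM in 14 d monocytes (SD, n = 4) through 324 ± 122 CPM in 3 d monocytes (SD, n = 4) to 149 ± 50.7 CPM in 14 d macrophages (SD, n = 3), and only the 14 d monocytes were clear of the next group. Ccr2 kept all 3 monocyte groups above all 3 macrophage groups, with control monocytes overlapping both the 14 d and the 3 d monocytes, and Cx3cr1 ran from control monocytes, clear of the 14 d and 3 d monocytes, down to the 14 d macrophages, clear in turn of the 3 d and control macrophages.

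Of the ligands, only Ccl2 was called between cell types in control samples, higher in monocytes by 1.498 on the log2 scale (SE 0.54, edgeR adjusted p = 0.0295). That call was lost without control monocyte sample 1 (1.31, edgeR adjusted p = 0.0769) or without any 1 of the 4 control macrophage samples (1.46 to 1.54, edgeR adjusted p from 0.0517 to 0.0649), and with both other scalings (1.07 and 1.28, edgeR adjusted p = 0.103 and 0.0585). At 3 d all 4 ligands were higher in monocytes, by 2.48 for Ccl2 (SE 0.62, edgeR adjusted p = 0.00230), 4.24 for Ccl7 (SE 1.11, edgeR adjusted p = 0.00356), 4.23 for Ccl8 (SE 1.23, edgeR adjusted p = 0.00638) and 3.30 for Ccl12 (SE 1.00, edgeR adjusted p = 0.00868). A fit of the 3 d samples alone kept Ccl8 but not Ccl2 (edgeR adjusted p = 0.0624), Ccl7 (edgeR adjusted p = 0.0542) or Ccl12 (edgeR adjusted p = 0.0813). The 3 d calls of Ccl8 and Ccl12 were also lost without macrophage 3 d sample 1 (3.32 and 2.77) or sample 2 (3.37 and 2.58). Leaving out monocyte sample 3 lowered Ccl7, Ccl8 and Ccl12 to 3.56, 3.05 and 2.41, and leaving out macrophage sample 3 raised Ccl2, Ccl7, Ccl8 and Ccl12 to 3.09, 5.34, 8.16 and 4.28; without macrophage sample 2 Ccl7 was 3.59.

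At 14 d the ligand differences were larger: 5.99 for Ccl2 (SE 0.75, edgeR adjusted p = 1.95e-06), 6.49 for Ccl7 (SE 1.25, edgeR adjusted p = 0.000273), 6.03 for Ccl12 (SE 1.11, edgeR adjusted p = 0.000157) and 2.97 for Ccl8 (SE 0.77, edgeR adjusted p = 0.00284). Without macrophage 14 d sample 1 those of Ccl8 and Ccl12 were 3.83 and 7.48. On the common scale Ccl8 was at 64.9 ± 17.8 CPM in 14 d monocytes (SD, n = 4) and 8.27 ± 6.45 CPM in 14 d macrophages (SD, n = 3), the second highest of the 6 groups. Ccl12 was at 53.7 ± 22.04 CPM in 14 d monocytes (SD, n = 4), above 3 d monocytes at 9.15 ± 9.30 CPM (SD, n = 4), and the other 4 groups, all under 1 CPM on average, overlapped. For Ccl2 and Ccl7 the 3 monocyte groups led in the order 14 d, 3 d and control, each overlapping the next, and 14 d macrophages were last for Ccl2, clear of control macrophages.

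Whether a gene changed by a different amount in the 2 cell types was tested as an interaction in the same fit. At 3 d only Cx3cr1 of the 7 passed, against 18.7% of all genes, with a change lower in monocytes by 2.13 (SE 0.51, edgeR adjusted p = 0.00902); Ccl7 passed too without control monocyte sample 2 (4.10, edgeR adjusted p = 0.0454). At 14 d 5 of the 7 passed, against 36.8% of all genes. The change in monocytes exceeded that in macrophages by 4.49 for Ccl2 (SE 0.84, edgeR adjusted p = 0.000658), 5.30 for Ccl7 (SE 1.45, edgeR adjusted p = 0.0101), 4.85 for Ccl12 (SE 1.54, edgeR adjusted p = 0.0210) and 2.43 for Ccr1 (SE 0.40, edgeR adjusted p = 9.29e-05). For Cx3cr1, which fell in monocytes and rose in macrophages, it was lower by 3.81 (SE 0.48, edgeR adjusted p = 7.34e-06). For Ccl8, which rose in both, the difference of 1.34 did not pass (SE 1.70, edgeR adjusted p = 0.550), nor did that of -0.97 for Ccr2 (SE 0.59, edgeR adjusted p = 0.200), which passed in 4 of 8 other settings, DESeq2 among them (-1.40 to -1.71). Without control macrophage sample 3 the value of Ccl12 was 4.53 (edgeR adjusted p = 0.0597), without macrophage 14 d sample 1 it was 6.30, and without control monocyte sample 2 that of Ccl7 was 6.35.

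**Figure D5:**
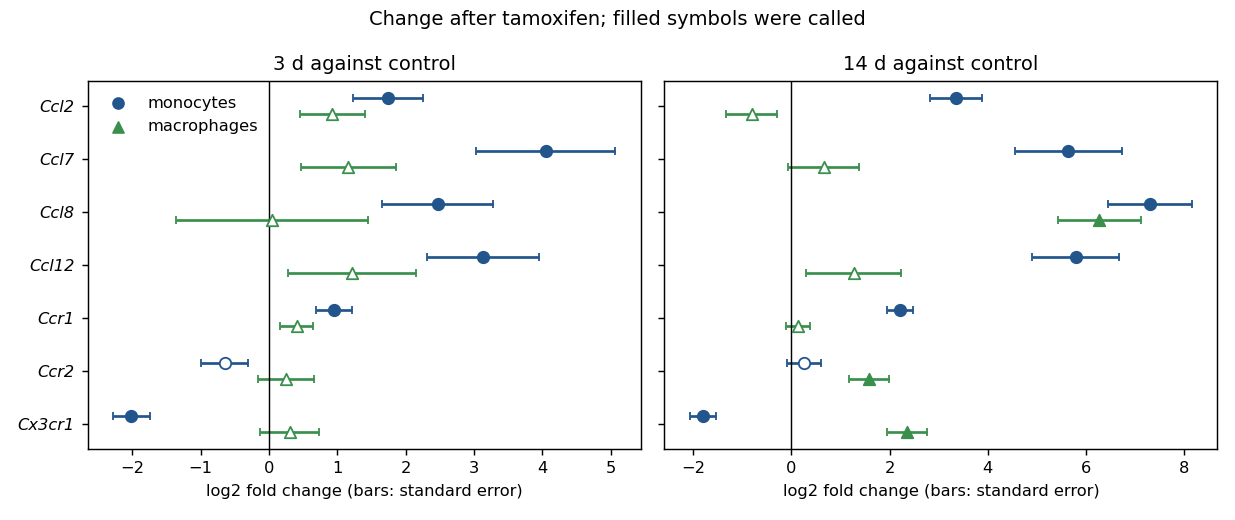
Log2 fold change of the 7 genes against control at 3 d and at 14 d in monocytes (circles) and macrophages (triangles), with bars of 1 standard error and filled symbols for called changes. At 14 d all 4 ligands lie at 3.35 or more in monocytes but only Ccl8, at 6.27, is called among the ligands in macrophages, and Cx3cr1 lies on opposite sides of 0.

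Other genes of the pathway were counted from lists. Of all genes tested, 36.8% were called higher and 14.4% lower in 3 d monocytes, 3.22% and 5.34% in 14 d monocytes, and 12% and 34.5% from 3 d to 14 d. In macrophages these shares were 1.05% and 0.224% at 3 d, and 39.4% and 22.9% at 14 d. Counts of list genes are to be read against these shares. The larger moves of these counts under 2 other scalings, by library size and by TMM factors of well-expressed genes only, are given beside them; these scalings were added for the lists after the data were seen. In the ligand cluster on chromosome 11 the other 2 genes are Ccl11 (eotaxin), at most 0.376 CPM in any monocyte sample and at 0.507 to 3.75 CPM in 14 d macrophages, and Ccl1. Of the 10 chemokine receptor genes listed on chromosome 9, the 3 receptors included, 2 were higher and 2 lower in 3 d monocytes, 2 higher and 1 lower in 14 d monocytes, none was called in 3 d macrophages and 6 were higher in 14 d macrophages, of 9 tested each time. With either other scaling 5 were higher and 1 lower in 3 d monocytes. Ccr3, the eotaxin receptor, which is also one of the 4 eosinophil markers, rose in 14 d macrophages by 6.30 on the log2 scale (SE 0.80, edgeR adjusted p = 3.15e-05), from 0 to 0.328 CPM in control to 4.91 to 18.1 CPM. Among 13 other CC and scavenging receptors, 3 were higher and 1 lower in 3 d monocytes, 1 higher in 14 d monocytes, none called in 3 d macrophages, and 8 higher and 1 lower in 14 d macrophages, of 9 tested in monocytes and 12 in macrophages. In 3 d monocytes either other scaling gave 5 higher and 0 lower. Ackr3, a scavenging receptor, rose by 2.53 in 3 d monocytes and by 3.79 in 14 d macrophages.

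Other ligands of the same receptors were called higher in no contrast against control. Of 5 listed (Ccl3, Ccl5, Ccl6, Ccl9 and Cx3cl1), none rose against control in either cell type at either time; 2 fell in 3 d monocytes, 1 in 14 d monocytes, none in 3 d macrophages and 3 in 14 d macrophages. In monocytes, however, 3 rose from 3 d to 14 d, Ccl6 by 1.05 (SE 0.14, edgeR adjusted p = 0.000432), Ccl3 by 0.98 (SE 0.28, edgeR adjusted p = 0.0111) and Ccl9 by 0.77, and Cx3cl1 fell by 2.03. With the 2 other scalings 1 and 0 rose. Over all genes, 14.4% were called lower in 3 d monocytes, 5.34% in 14 d monocytes and 22.9% in 14 d macrophages. Ccl6, a Ccr1 ligand, fell by 1.08 on the log2 scale in 3 d monocytes and by 1.88 in 14 d macrophages, where it went from 4528 to 9110 CPM in control to 1781 to 1852 CPM. Cx3cl1, the Cx3cr1 ligand, fell in 14 d macrophages by 2.31 (SE 0.22, edgeR adjusted p = 1.61e-06), from 52.3 to 82.2 CPM to 12.5 to 16.3 CPM, in the samples in which Cx3cr1 rose. Ccl3 fell there by 1.61. Ccl5 fell by 3.07 in 3 d monocytes and by 4.55 in 14 d monocytes. Markers of T and NK cells, given above, fell in the same groups, and the part of such cells in the fall of Ccl5 was not tested. The median log2 fold change of the 5 was -0.51 in 3 d monocytes and -1.61 in 14 d macrophages, against 0.22 and 0.18 over all genes tested. In 3 d monocytes it was -0.021 and 0.032 with the other scalings.

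Genes that act below the receptors were called mostly lower against control, in numbers that hung on the scaling. Of 22 listed (G protein subunits, phosphoinositide 3-kinase, Rac activators, arrestins and regulators of G protein signalling), 11 fell in 3 d monocytes and none rose, 4 fell in 14 d monocytes, 2 rose in 3 d macrophages, and 2 rose and 12 fell in 14 d macrophages. Over all genes, 14.4% were called lower in 3 d monocytes, 5.34% in 14 d monocytes and 22.9% in 14 d macrophages. In 3 d macrophages 1.05% were called higher. With the other scalings 4 of the listed genes fell in 3 d monocytes in both, and 4 and 3 fell in 14 d macrophages. In monocytes 6 rose and none fell from 3 d to 14 d, Rac1 by 1.37, Gnb1 by 1.25 and Arrb2 by 1.03 the furthest. With the other scalings 2 rose and none fell, or none rose and 1 fell. Grk3, a kinase that desensitises receptors, fell by 1.64 in 3 d monocytes and 1.86 in 14 d monocytes, and Dock2, which activates Rac in migrating leukocytes, by 1.28 and 0.87. Rgs18 and Rgs1, which shorten G protein signals, rose in 3 d macrophages by 2.71 and 2.09. Plcb2 and Prex1 fell in 14 d macrophages by 1.56 each. The medians were -0.64 in 3 d monocytes and -0.67 in 14 d macrophages, and between -0.17 and -0.11 and between -0.23 and -0.11 with the other scalings.

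The 20 listed NF-kB and AP-1 genes include factors known to act on inflammatory chemokine genes. Inhibitors such as Nfkbia and Tnfaip3 and kinase genes such as Chuk and Ikbkb are listed too, so counts mix these roles. None of the 20 was called higher at either time against control in monocytes. There 12 fell and none rose at 3 d, among them Junb by 1.27, Rel by 1.24 and Atf3 by 1.19, and 2 fell and none rose at 14 d, Fos by 1.07 and Rel by 1.01. Over all genes, 14.4% were called lower at 3 d and 5.34% at 14 d. The 3223 genes called lower at 3 d became 499 or 416 with the other scalings, where 4 and 2 of the listed genes fell. In the step from 3 d to 14 d, in which Ccl2, Ccl8 and Ccl12 rose, 5 rose and none fell. The furthest were Jund by 1.56, Chuk by 0.84 and Nfkbia by 0.83, and 0 were called with either other scaling. In macrophages Tnfaip3, an inhibitor of NF-kB signalling, rose by 1.11 at 3 d as the only 1 called, and at 14 d 4 were higher and 7 lower, Fosl1 rising by 3.92 and Fosb and Fos falling by 1.69 and 1.41. The shares over all genes there were 39.4% higher and 22.9% lower. For the listed genes the other scalings gave 5 higher and 4 lower, or 6 and 3. The median over the list was -0.82 in 3 d and -0.31 in 14 d monocytes, against 0.22 and 0.088 over all genes tested. With the other scalings the median of all genes in 3 d monocytes was 0.70 and 0.76, so the list median hangs on the scaling too. Of 7 genes for the decay of AU-rich transcripts, a class to which many chemokine transcripts belong, Zfp36 and Zc3h12a fell in 3 d monocytes by 1.01 and 0.61. The other scalings gave 0 lower and 1 higher there. In 14 d monocytes 1 was higher, Zfp36l1, by 2.07. Between 3 d and 14 d 3 were higher, and 1 with either other scaling. None was called in 3 d macrophages, and 3 were higher and 1 lower in 14 d macrophages.

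Among 16 genes for the release, growth and retention of monocytes, 3 were higher and 8 lower in 3 d monocytes, 1 higher and 5 lower in 14 d monocytes, 1 higher in 3 d macrophages, and 4 higher and 4 lower in 14 d macrophages, of 15 tested each time. Over all genes, 36.8% were called higher and 14.4% lower in 3 d monocytes, and 3.22% and 5.34% in 14 d monocytes. In 3 d macrophages 1.05% were called higher, and in 14 d macrophages 39.4% were higher and 22.9% lower. With the other scalings 4 of the listed genes were higher and 4 lower in 3 d monocytes in both, and 4 or 5 higher and 2 lower in 14 d macrophages. In monocytes 2 were higher and 2 lower from 3 d to 14 d, and 1 and 3 with either other scaling. Csf1, the growth factor of monocytes and macrophages, rose by 3.97 in 14 d monocytes (SE 0.64, edgeR adjusted p = 0.00171), by 3.44 in 3 d macrophages (SE 0.49, edgeR adjusted p = 0.0135) and by 4.94 in 14 d macrophages (SE 0.51, edgeR adjusted p = 4.32e-05). Itga4 and Cxcr4, which hold cells in the marrow or at the vessel wall, fell in 3 d monocytes by 1.53 and 1.41, while Vcam1 rose by 1.55. Itgal fell in 14 d monocytes by 1.86.

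Genes whose log2 CPM was most like that of a member were looked for among genes averaging over 1 on that scale, over the 12 monocyte samples and over the 10 macrophage samples apart. In monocytes the nearest by Pearson's r, up to 2 for each member, were Adam8 (0.969) and Ccl12 (0.967) for Ccl2, Ccl24 (0.991) and Arg1 (0.976) for Ccl7, Akap7 (0.971) and Mmp19 (0.967) for Ccl8, and Adam8 (0.988) and AA467197 (0.981) for Ccl12. They were Stab1 (0.970) and Tarm1 (0.951) for Ccr1, Dusp22 (0.932) for Ccr2, and Lcp2 (0.984) and Arhgap17 (0.982) for Cx3cr1. In macrophages Cx3cr1 was the gene nearest to Ccr2 (0.949). The other nearest genes there were Srsf7 and Cops4 for Ccl2, Ccdc25 and Slc20a1 for Ccl7, Asic1 and B4galt6 for Ccl8, Hmgb3 and Ly6c2 for Ccl12, Ifi27l2a and Gm20319 for Ccr1, Siah1b for Ccr2, and Armc9 and Tek for Cx3cr1. Samples of 3 groups share their group's level in these values, and by Spearman's rho only 4 of the 28 nearest genes were the same.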

How the data were processed

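RNA was sequenced from 22 samples, grouped by the cell type and time in their labels. The authors deposited raw counts of reads by gene in 2 tables, 1 for each cell type, from oligo(dT)-enriched, paired-end libraries. Per the submitters' processing notes, STAR 2.7.2c and 2.7.3a, featureCounts 1.6.3, DESeq2 1.26.0 and 1.28.1, GRCm38 and mm10 were used; which version made which table, the annotation release and the strand setting are not given in the sources used here. The macrophage table holds 31134 genes, each with at least 6 counts in some sample, and that of monocytes 55421 genes, of which 6505 have none.

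Tests were run with edgeR 4.0.16 under R 4.3.3 (filterByExpr, TMM factors, robust quasi-likelihood fit, two-sided, Benjamini-Hochberg adjustment over all genes tested), each cell type over its 3 groups, and both together over the 31116 genes in both tables. Calls needed an adjusted p under 0.05 together with a fold change above 1.5. DESeq2 1.42.0 was an alternative. Log2 CPM used a prior count of 2, and RPKM the union of exons. The code was tested on simulated data.

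The members and lists were chosen with earlier results of these data known. Besides the members, the genes named are the 2 most like each member, up to 3 called genes with the largest change per list and contrast at a mean log2 CPM above 1, and marker genes; Ccl1, Ccl11 and single markers were named outside that rule after their values were seen, and some genes the rule names are not reported here. Replicate numbers were checked by the correlation of same-numbered samples' deviations from group means. In control monocytes and control macrophages all 4 pairs lay between 0.142 and 0.238, and elsewhere not every pair passed 0.1. Control and 14 d monocytes, which differ in Y-linked counts, had a higher mean (0.28) than control monocytes and control macrophages (0.18). Such a correlation therefore cannot establish that numbers pair the samples. No 2 samples were duplicates. The alternatives are given below.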

Additional observations from a re-analysis of the deposited data

Results flagged for a closer look

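Of 28 groups of 4 samples (7 genes in 4 groups), 1 held a sample far from the rest: Cx3cr1 in 14 d monocyte sample 4, at 273 CPM against 199 to 209.9 CPM in the other 3. Chance alone gives about 1 such group in 20.

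For 6 results the change after tamoxifen differed between the cell types by the interaction test. On the log2 scale the change in monocytes less that in macrophages was -2.13 for Cx3cr1 at 3 d. At 14 d it was 4.49 for Ccl2, 5.30 for Ccl7, 4.85 for Ccl12, 2.43 for Ccr1 and -3.81 for Cx3cr1. The sum of interstitial and monocyte-derived macrophage markers was also higher at 14 d in both cell types, at 771 to 2048 CPM in monocytes, and in macrophages at 291 to 577 CPM; its part in these differences was not tested.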

How the results depend on the processing

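Over 77 tested member values and their 1839 alternatives, 1752 kept direction and side of the threshold, 46 fell short of it, 14 came to pass it and 27 changed sign, in 11 results; 0 of these 27 were called, before or after. The step of Cx3cr1 from 3 d to 14 d in monocytes was -0.17 by library size, -0.25 by TMM factors of well-expressed genes and -0.13 with genes above a mean log2 CPM of 1, and that of Ccr1 in macrophages 0.15 and 0.20 with these scalings. In macrophages with no filter on low counts Ccr1 was -0.068 at 14 d and Ccl12 -0.17 from 3 d to 14 d, and with a replicate block Ccl8 was -0.44 at 3 d. Without 1 library the ranges of these results were -0.012 to 0.52 for that step of Cx3cr1; in 3 d macrophages -0.036 to 1.36 for Ccl2, -0.30 to 1.66 for Ccl7, -3.83 to 0.71 for Ccl8, -0.17 to 1.75 for Ccl12 and -0.16 to 0.53 for Ccr2; in 14 d macrophages -0.22 to 1.75 for Ccl12 and -0.084 to 0.35 for Ccr1; and from 3 d to 14 d in macrophages -1.18 to 0.82 for Ccl7 and -1.45 to 1.28 for Ccl12. Scaling by library size, or TMM factors of well-expressed genes only (average log2 CPM over 5), moved the median log2 fold change of all genes in 3 d monocytes from 0.22 to 0.70 or 0.76 (8215 higher and 3223 lower calls became 9743 and 499, or 9984 and 416). In 14 d macrophages it moved from 0.18 to 0.61 or 0.73 (8258 and 4793 calls became 9786 and 1789, or 10383 and 1284); in 14 d less 3 d monocytes from -0.26 to -0.64 or -0.72 (2677 and 7718 became 560 and 9138, or 434 and 9549); in 14 d less 3 d macrophages from 0.16 to 0.59 or 0.66 (7611 and 4195 became 9243 and 1318, or 9647 and 1097). Against macrophages, 14 d monocytes went from 6229 and 10777 to 2342 and 16557, or 2729 and 15762, and controls from 5245 and 6542 to 3414 and 8420 by library size. The 14 d interaction went from 5318 and 4511 to 1561 and 6874, or 1330 and 7296 (3146 and 6699 with DESeq2), the 3 d interaction from 4059 and 936 to 5318 and 412, or 5417 and 386, and 14 d monocytes from 720 and 1194 to 873 and 922 by library size. No call of a member changed direction with the scaling.

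Members called between 3 d and 14 d monocytes numbered 3 with either of these scalings or with only genes above a mean log2 CPM of 1, and without 1 library 3 to 5 (3 without 14 d sample 3). At 3 d the interaction called 2 members with the second scaling and 1 to 2 without 1 library (2 without control monocyte sample 2), and monocytes against macrophages at 3 d 3 with only the groups compared. Genes called without a filter on low counts were 19592 in 3 d monocytes and 16664 from 3 d to 14 d. With genes above a mean log2 CPM of 1, fewer being tested, they were 2328 and 2346 there, 5752 and 5032 in 14 d macrophages against control and 3 d, 8347 and 8823 between cell types at 3 d and 14 d, and 1802 and 4693 for the interactions. In 3 d macrophages 763 genes were called by DESeq2 in place of 267, and without 1 library 77 (without 3 d sample 1) to 1476 (without 3 d sample 2); 92, 146, 101 and 111 were called without control samples 1, 3 and 4 and 3 d sample 3. Without 1 library 14 d monocytes gave 1158 (without 14 d sample 3) to 1904 genes, and the 3 d interaction 2272 (without macrophage 3 d sample 3) to 5370, with 3136, 3033 and 2474 without control macrophage samples 1 and 2 and macrophage 3 d sample 1. The cause was not tested. By Spearman's rho 4 of 28 most similar genes were the same.

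With a replicate block, 133 genes were called in 3 d macrophages, and Ccr2 was lost in 14 d macrophages against control (1.42, edgeR adjusted p = 0.0681) and against 3 d (1.27, edgeR adjusted p = 0.104). Pairing of these samples was not shown. In control monocytes against control macrophages, where numbers may pair the samples, the block called 3 members and 11681 genes in place of 11787, and it changed no other call of a member. Control and 14 d monocytes had a mean same-number correlation of 0.28, the lowest 0.0892.

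With the shortest coding transcript as length, chosen after seeing the data, mean RPKM in control, 3 d and 14 d monocytes was 758, 483 and 904 for Ccr2 and 246, 60.9 and 70.4 for Cx3cr1, and 43.3 for Ccl2 in control. In macrophages it was 7.98, 9.45 and 23.8 for Ccr2, 0.536 for Cx3cr1 at 3 d, and 19.8 and 11.3 for Ccl2 in control and at 14 d. Depth limits Ccl8 and Ccl12 in macrophages, where most samples held few counts.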
